A study of Mus musculus with 5 samples.

Results

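Guides against 6 genes were followed through a pooled CRISPR screen of embryonic stem (ES) cells of the mouse: the 5 genes of the small nuclear RNA activating protein complex (SNAPc), Snapc1 to Snapc5, and Ints12, a subunit gene of the Integrator complex. They are every gene of the screened library whose name begins with SNAPC or INTS, 6 of 1682 genes. Each gene had 10 guides, 60 in all. A guide was kept when it had at least 30 reads in both plasmid libraries, which left 51 of the 60 guides: 9 for Snapc1, 7 for Snapc2, 8 for Snapc3, 8 for Snapc4, 10 for Snapc5 and 9 for Ints12. The filter read the plasmid libraries alone, so no guide passed or failed it for its level in the cells. The set was chosen by its measured guide abundance: Snapc1 and Ints12 ran in opposite directions in these same libraries. The courses are therefore given as a description, and the counts of guides past a trend test, given further on, lend them no support.

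In a pooled screen each guide directs the nuclease Cas9 to a gene, and how often the guide is read in the DNA tells how abundant the cells that carry it are. There were 5 libraries: 2 of the plasmid pool (maxiprep) before it entered cells, and 1 each of cells at days 5, 8 and 12. The plasmid libraries are taken as such from their titles, which name a maxiprep, although their other labels read ES cells and genomic DNA as for the cell libraries. All cells had the genotype Ainv15(iNgn2 Tubb3::GFP), received the same pool of lentivirus, and were kept in ES cell medium with Zeocin, so the plasmid pool is the reference and no group of cells was without guides. The titles count days after transduction and the protocol counts from selection, so the day is used as a name. How Cas9 was supplied is not given in the sources used here. The plasmid libraries held 3541896 and 1350234 reads and the cell libraries 1008492 to 1082489. A time point is 1 library with no replicate culture, so a difference between days cannot be told apart from variation between cultures or libraries.

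Small nuclear RNAs are the RNA cores of the spliceosome. SNAPc binds the promoter element shared by their genes and recruits RNA polymerase II to most of them, or RNA polymerase III to the U6 gene. Snapc4, the largest subunit, makes the main DNA contacts through Myb repeats and together with Snapc1 and Snapc3 forms the core that suffices for binding, while Snapc2 and Snapc5 are accessory subunits that associate with Snapc4. Integrator acts after SNAPc: it travels with RNA polymerase II, cuts the 3′ end of the nascent small nuclear RNA, and also ends transcription early at many protein-coding genes. Ints12 is a small subunit with a PHD finger and is not part of the cutting module.

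The genes lie on 6 chromosomes of GRCm38.p6, per the RefSeq gene table, in which all 6 names of the files (SNAPC1, SNAPC2, SNAPC3, SNAPC4, SNAPC5 and INTS12) matched a symbol: Snapc1 on chromosome 12 (73964457 to 73988966), Snapc2 on chromosome 8 (4253102 to 4256220), Snapc3 on chromosome 4 (83415711 to 83473019), Snapc4 on chromosome 2 (26362765 to 26380661), Snapc5 on chromosome 9 (64179297 to 64182688) and Ints12 on chromosome 3 (133091855 to 133110988). Guide cut sites were not placed on the genome here. The guides are 20 bases long and are numbered in the order of the deposited table. None of the 60 sequences, nor its reverse complement, was listed a second time in the library.

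The guides of Snapc1 and Ints12 are shown in full because they carry the opposite courses. Capitals mark bases that a guide shares with another guide of the same gene, on either strand, where the sites overlap by at least 10 bases.
Snapc1 guide 1: gaacgcacagcatttcgacg
Snapc1 guide 2: gcttGGGCATAGCTGTGAAG
Snapc1 guide 3: CTGATCTGGAACGTGTGtgg
Snapc1 guide 4: GGGCATAGCTGTGAAGtgga
Snapc1 guide 5: gcgtctcgtagtcagtctgc
Snapc1 guide 6: CACACGTTCCAGATCAGagt
Snapc1 guide 7: cccagtccttcaaggcaact
Snapc1 guide 8: gatggacagCGTGCGCTTCG
Snapc1 guide 9: CGTGCGCTTCGaggacttca
Snapc1 guide 10: gctcagccgcttccaagaga
Ints12 guide 1: cgttactactgccggaaggg
Ints12 guide 2: tgaatgaccctcgcctggtg
Ints12 guide 3: acaggccaaccccatctcca
Ints12 guide 4: cagttggtttccagatgcca
Ints12 guide 5: accgggcacagtaccacacc
Ints12 guide 6: CATTACTGTCCAAACCagca
Ints12 guide 7: tctttatcttctcagctgtg
Ints12 guide 8: GGTTTGGACAGTAATGggag
Ints12 guide 9: ccaagactgccataagcccc
Ints12 guide 10: tagtgctgatgactttgcca

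For Snapc2, Snapc3 and Snapc4 the guides with the lowest and the highest value at day 12 are shown, since they span the spread within each gene. For Snapc5 the 4 guides that cover a single site are shown, because their values differed from each other.
Snapc2 guide 5: gtagatgccgcatctcgcgg
Snapc2 guide 7: gaatggcctCTCGAACCACC
Snapc3 guide 2: gccaCGCCATAGCTCCCCAA
Snapc3 guide 1: gacggaggggcatccaacga
Snapc4 guide 3: ctgcctcccaagcatgacgg
Snapc4 guide 6: tgagcacgttaaggtcatca
Snapc5 guide 3: CAATCCATGATAAATTCTCG
Snapc5 guide 5: CCATGATAAATTCTCGAGGA
Snapc5 guide 9: cctTCCTCGAGAATTTATCA
Snapc5 guide 10: GAGAATTTATCATGGATTGa

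Abundance is given as CPM, the reads on a guide scaled to a common library size (per 1000000 reads of the kept guides, after trimmed-mean scaling). The change of a guide is the log2 ratio of its CPM plus 1 to that of the mean of both plasmid libraries plus 1. A gene's value is the median over its kept guides, with the SD over those guides as its error. The comparisons of days 5, 8 and 12 share the plasmid reference. Between the plasmid libraries themselves the gene medians of the 6 genes differed by -0.21 (Snapc5) to 0.27 (Snapc3) on this scale. Values near 0 mean that a guide kept pace with the typical guide. The 893 kept non-targeting guides had medians above 0, of 0.41, 0.54 and 0.58 at days 5, 8 and 12, and are the background for guides without a target.

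At day 12 the medians of all 5 SNAPc genes were at least 2-fold below the plasmid level, against 15.8% of all 1682 genes, and the median of Ints12 was at least 2-fold above it, against 1.19% of all genes. The order from lowest to highest was Snapc1 (-3.52), Snapc5 (-2.94), Snapc3 (-2.21), Snapc2 (-1.87), Snapc4 (-1.16) and Ints12 (1.76). Each step between neighbours among the SNAPc genes was smaller than the SD over guides of either neighbour, which ranged from 0.89 to 1.91. The step from Snapc4 to Ints12 was larger than both of their SDs. Guide by guide, 30 of 42 kept SNAPc guides were at least 2-fold lower and 0 at least 2-fold higher at day 12. Among all 14443 kept guides to genes these shares were 21.5% and 7.39%, and among non-targeting guides 3.36% and 22.3%. Of the 9 Ints12 guides, 8 were at least 2-fold higher and 0 at least 2-fold lower. With the changes centred on the median of the non-targeting guides, 36.4% of guides to genes were at least 2-fold lower and 1.55% at least 2-fold higher, and the counts were 36 of 42 SNAPc guides lower and 7 of 9 Ints12 guides higher.

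**Figure D1:**
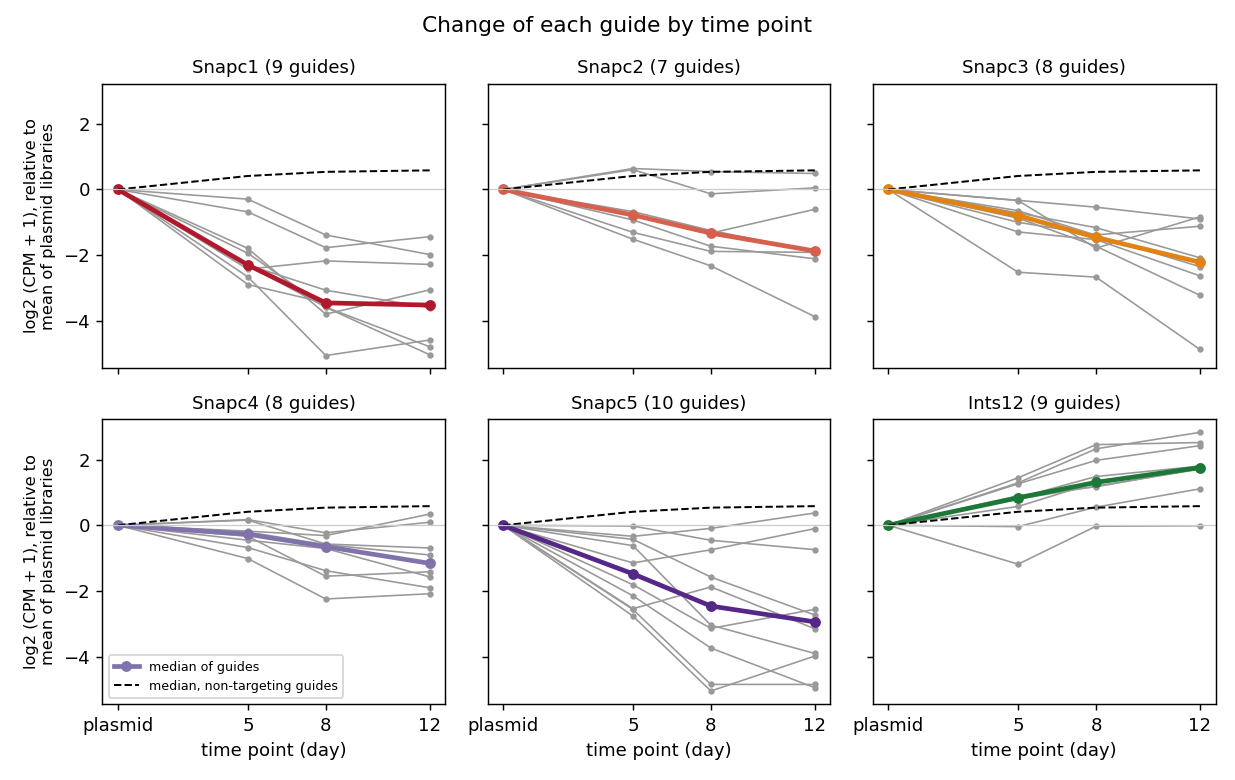
Log2 change of CPM plus 1 against the mean of the plasmid libraries (y axis) by time point (x axis, day) in 1 panel per gene; grey lines are single kept guides, the coloured line is their median and the dashed line is the median of the non-targeting guides. All 9 Snapc1 guides lie below 0 at each day, 8 of 9 Ints12 guides lie above 0 at days 8 and 12, and the Snapc5 guides end between -4.94 and 0.37.

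Snapc1 codes for a core subunit of SNAPc that bridges Snapc4 and Snapc3. The summed reads of its 9 kept guides were 2549 and 1018 for the plasmid pool and, in cells, 228 at day 5, 99 at day 8 and 72 at day 12. In CPM these sums were 736 and 762, then 220, 94.5 and 78.5. The exact Poisson 95% interval of the sum was 192 to 250 CPM at day 5, 76.8 to 115 at day 8 and 61.4 to 98.8 at day 12. Every cell library lay below both plasmid libraries, and the intervals of days 8 and 12 overlapped. Such intervals cover counting error only, because reads amplified by PCR are not separate molecules or cells. The median change was -2.30 at day 5 (SD 0.88), -3.45 at day 8 (SD 1.14) and -3.52 at day 12 (SD 1.29), with 9 of 9 guides below 0 at each day. Only 4 genes of the library had a lower median at day 5, 2 at day 8 and 10 at day 12. At day 12, 8.74% of the plasmid level was left at the median. All 9 guides were at least 2-fold lower at day 12, and 7 of 9 already at day 5, where the share was 12.9% over all guides to genes and 3.36% over non-targeting guides.

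The Snapc1 guides differed in depth of loss. Guide 3 went from 351 and 139 plasmid reads to 27, 8 and 2 reads at days 5, 8 and 12, a change of -5.03 at day 12. Guide 2 went from 195 and 76 to 11, 4 and 1 reads (-4.78), and guide 1 from 437 and 171 to 20, 3 and 4 reads (-4.58). Guide 8 was the least changed, with 185 and 83 plasmid reads and 37, 17 and 19 reads in the cells (-1.44), followed by guide 10 (-1.98), which still had 75 reads at day 5. At day 12, 1 read is worth 1.09 CPM and the Snapc1 guides had 1 to 20 reads each, so differences among the lowest of them rest on a few reads. No kept Snapc1 guide was within 2-fold of its plasmid level at day 8 or day 12.

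Snapc4 codes for the subunit that contacts the promoter, and Snapc3 for the other core subunit. The summed reads of the 8 kept Snapc4 guides were 1738 and 709 in the plasmid libraries and 443, 298 and 254 at days 5, 8 and 12, or 502 and 531, then 427, 284 and 277 CPM. The cell libraries lay below the plasmid libraries, and the 95% intervals of days 8 (253 to 319) and 12 (244 to 313) overlapped. The median change of Snapc4 was -0.27 at day 5 (SD 0.40), -0.65 at day 8 (SD 0.70) and -1.16 at day 12 (SD 0.89), which was the smallest loss among the SNAPc genes at each day. At day 12, 4 of 8 guides were at least 2-fold lower, with guide 3 lowest at -2.08. Guide 6 was highest at 0.34, with 107 and 64 plasmid reads and 46 reads at day 12, and guide 9 stood at 0.09. Both lay below the non-targeting median of 0.58.

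For Snapc3 the sums over 8 guides were 1519 and 580 reads in the plasmid libraries and 257, 183 and 110 reads at days 5, 8 and 12. The corresponding levels were 438 and 434, then 248, 175 and 120 CPM, so each later cell library was lower than the one before. Their 95% intervals did not overlap (218 to 280, 150 to 202 and 98.5 to 145 CPM). The median was -0.79 at day 5 (SD 0.71), -1.46 at day 8 (SD 0.60) and -2.21 at day 12 (SD 1.37), with 8 of 8 guides below 0 each time. Guide 2 was lowest, with 192 and 86 plasmid reads, 10 and 9 reads at days 5 and 8, and 1 read at day 12 (-4.86). Guide 1 was highest at day 12 (-0.83), with 18, 6 and 11 reads in the cells.

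Snapc2 and Snapc5 code for the accessory subunits. The 7 kept Snapc2 guides summed to 2168 and 831 reads in the plasmid libraries and to 382, 263 and 208 reads in the cells, or 626 and 622, then 368, 251 and 227 CPM. The median was -0.78 at day 5 (SD 0.86), -1.33 at day 8 (SD 1.02) and -1.87 at day 12 (SD 1.49). At day 12, 4 of 7 guides were at least 2-fold lower and 2 were above 0: guide 7 (0.49, from 155 and 60 plasmid reads to 73, 69 and 58) and guide 8 (0.05, from 72 and 34 plasmid reads to 37, 22 and 22). Guide 5, the lowest, went from 411 and 133 plasmid reads to 39, 22 and 6 reads (-3.87). The course of Snapc2 was nearest to that of Snapc3 among the 6 genes, at a Euclidean distance of 0.37 log2 units over the 3 medians, while Snapc1 and Snapc4 were 4.18 apart.

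The 10 Snapc5 guides were all kept. They summed to 1682 and 555 plasmid reads and to 240, 161 and 142 reads at days 5, 8 and 12, or 485 and 415, then 231, 154 and 155 CPM. Days 8 and 12 did not differ beyond counting error (131 to 179 and 130 to 182 CPM). The median was -1.48 at day 5 (SD 1.05), -2.46 at day 8 (SD 1.78) and -2.94 at day 12 (SD 1.91). The SD at day 12 was larger than in 99.0% of all genes. At that time 7 guides lay between -4.94 and -2.56, and the other 3 were guide 10 (-0.74), guide 5 (-0.10) and guide 6 (0.37). Guides 10, 5 and 6 held 52.3, 34.9 and 48.0 CPM of the summed 155 CPM at day 12, and the log2 ratio of the summed CPM was -1.54, a smaller loss than the median. Guide 4 had 88 and 40 plasmid reads, 4 reads at day 5 and 0 reads at days 8 and 12. A count of 0 allows up to 3 reads, so guide 4 was at least 8.46-fold lower at day 12 and at least 9.66-fold lower at day 8. Guide 3 had 0 reads at day 8, or at least 11.2-fold lower, and 1 read at day 12. With guide 4 at its bound the Snapc5 median at day 12 was -2.91.

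The site covered by 4 Snapc5 guides shows how far guides with a common target can differ. Cas9 usually cuts 3 bases from the 3′ end of the guide match. On that basis guides 3 and 5, which share 16 bases on the same strand, cut 4 bases apart, and guides 5 and 10, the outermost, cut 19 bases apart on opposite strands. At day 12 guide 3 was at -3.98 (from 115 and 41 plasmid reads to 4, 0 and 1) and guide 9 at -3.15 (from 108 and 31 to 4, 7 and 2). Guide 5 stood at -0.10 (from 143 and 45 to 17, 23 and 32) and guide 10 at -0.74 (from 375 and 91 to 90, 67 and 48). The cuts of the low guides, 9 and 3, lie between those of the high guides, 10 and 5. Guides 3 and 5 differed by 3.88 log2 units, though guide 3 had 1 read at day 12, so the size of this difference is uncertain. Snapc5 guides 1 and 4, which share 17 bases and cut 3 bases apart, had 1 and 0 reads at day 12, too few to say how far they differ.

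Overlaps of at least 10 bases were found for 18 guide pairs in 5 of the 6 genes, all but Snapc4, and took in 25 of the 60 guides. Guides of such a pair share much of their target and are not separate readings of the gene. In the 16 pairs with both guides kept, the absolute difference at day 12 had a median of 1.62. It reached 3.88 for Snapc5 guides 3 and 5, of which guide 3 had 1 read. By gene its median was 1.73 for Snapc1, 1.62 for Snapc2, 2.24 for Snapc3 and 1.25 for Snapc5. Over all pairs of kept guides of the same gene it was 1.47, 1.92, 1.48 and 2.11. In Snapc1, guides 8 and 9 share 11 bases and were at -1.44 and -3.59, guides 2 and 4 share 16 bases and were at -4.78 and -3.05, and guides 3 and 6 share 17 bases and were at -5.03 and -3.52. In Snapc2, guides 4 and 8 share 17 bases and were at -2.11 and 0.05. In Snapc3, guides 2 and 4 share 16 bases on opposite strands and were at -4.86 and -2.63. The Ints12 pair, guides 6 and 8, could not be compared because guide 8 did not pass the read filter.

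Ints12 stood on the other side of the plasmid level. Its 9 kept guides summed to 1874 and 698 reads in the plasmid libraries and to 909, 1489 and 1777 reads at days 5, 8 and 12. In CPM the sums were 541 and 523, then 876, 1422 and 1937. Each cell library lay above both plasmid libraries and above the cell library before it, and the 95% intervals of the cell libraries (820 to 935, 1350 to 1496 and 1848 to 2029 CPM) did not overlap. The median was 0.84 at day 5 (SD 0.82), 1.31 at day 8 (SD 0.80) and 1.76 at day 12 (SD 0.85), or 3.38-fold the plasmid level at the end. It was the second highest median of all genes at days 5 and 8 and the sixth highest at day 12. Against the non-targeting median the excess was 0.42, 0.77 and 1.18 on the log2 scale at the 3 days. At day 5, 3 of 9 guides were at least 2-fold higher, against 1.26% of all guides to genes and 7.50% of non-targeting guides; 1 of 9, guide 3, was at least 2-fold lower.

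The Ints12 guides ran nearly in parallel after day 5. Guide 5 was highest at day 12 (2.83), with 154 and 59 plasmid reads and 114, 237 and 294 reads at days 5, 8 and 12. Guide 10 stood at 2.52 (67 and 33 plasmid reads, then 64, 131 and 120) and guide 9 at 2.42. Guide 3 departed from the rest: it had 90 and 33 plasmid reads, 11 reads at day 5 (-1.18), 26 at day 8 and 23 at day 12 (-0.015). From day 5 to day 12, however, guide 3 gained 1.17, close to the median of 1.15 over the 9 guides. Over that interval all 9 guides were above 0, between 0.83 and 1.54, with an SD of 0.20. The typical SD within a gene over this interval was 0.58, as the median over all genes, and guides at low read numbers have larger counting error than those of Ints12.

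**Figure D2:**
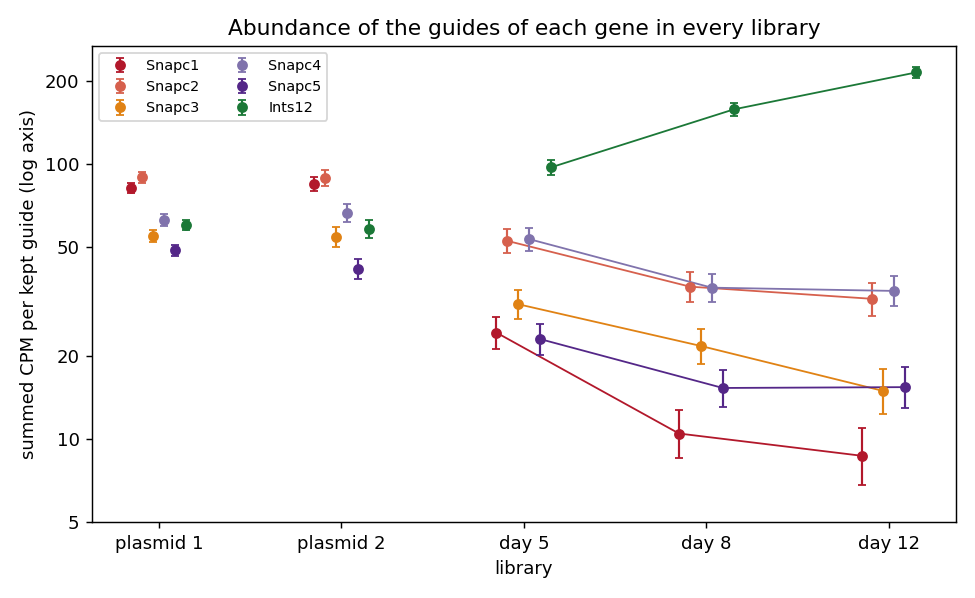
Summed CPM divided by the number of kept guides (y axis, log scale) for each gene in the 5 libraries (x axis); points are sums, bars are exact Poisson 95% intervals of the summed reads and cover counting error only, and lines join the 3 cell libraries. The genes lie within 41.5 to 89.4 CPM per guide in the plasmid libraries, and at day 12 Ints12 is at 215 and Snapc1 at 8.72 CPM per guide.

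The interval in which the change lay differed among the genes, given here without the plasmid libraries as the reference for the later intervals. From the plasmid pool to day 5 the medians were -2.30 for Snapc1, -1.48 for Snapc5, -0.79 for Snapc3, -0.78 for Snapc2, -0.27 for Snapc4 and 0.84 for Ints12. From day 5 to day 8 they were -1.09 (SD 0.79) for Snapc1, -1.24 (SD 1.17) for Snapc5, -0.42 (SD 0.44) for Snapc3, -0.58 (SD 0.25) for Snapc2, -0.55 (SD 0.42) for Snapc4 and 0.71 (SD 0.30) for Ints12. All guides of Snapc2, Snapc3 and Snapc4 were below 0 in this interval and all guides of Ints12 above 0. The median was -0.02 over all guides to genes and 0.12 over non-targeting guides. In the last interval, from day 8 to day 12, the median of Snapc3 was -0.94 (SD 0.99), the twelfth lowest of all genes. The medians of Snapc1 (-0.11, SD 0.74), Snapc2 (-0.06, SD 0.71), Snapc4 (0.01, SD 0.49) and Snapc5 (-0.14, SD 0.88) were nearer to 0, and all 5 SNAPc medians were within their SD of 0. Ints12 was at 0.45 (SD 0.21), with 9 of 9 guides above 0, beside a non-targeting median of 0.05. Several Snapc1 and Snapc5 guides had under 10 reads at day 8, and a further loss in them could not be measured well at this depth. The kept Snapc3 guides had a median of 16 reads at day 8 and 9 at day 12, so the last Snapc3 value also rests on few reads.

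Over the whole span from day 5 to day 12 the medians were -1.35 for Snapc3 (SD 0.84), -1.30 for Snapc1 (SD 0.98), -0.98 for Snapc5 (SD 1.44), -0.96 for Snapc4 (SD 0.61), -0.61 for Snapc2 (SD 0.83) and 1.15 for Ints12 (SD 0.20). At least 2-fold lower were 6 of 9 Snapc1, 5 of 8 Snapc3, 5 of 10 Snapc5, 4 of 8 Snapc4 and 3 of 7 Snapc2 guides, against 12.0% of all guides to genes. Of the Ints12 guides 6 of 9 were at least 2-fold higher, against 4.76%. A single SNAPc guide was also at least 2-fold higher, Snapc5 guide 5, which went from 17 to 32 reads (1.05). The non-targeting guides had a median of 0.17 over this span. Centred on it, the Ints12 median was 0.98, just short of 2-fold.

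**Figure D3:**
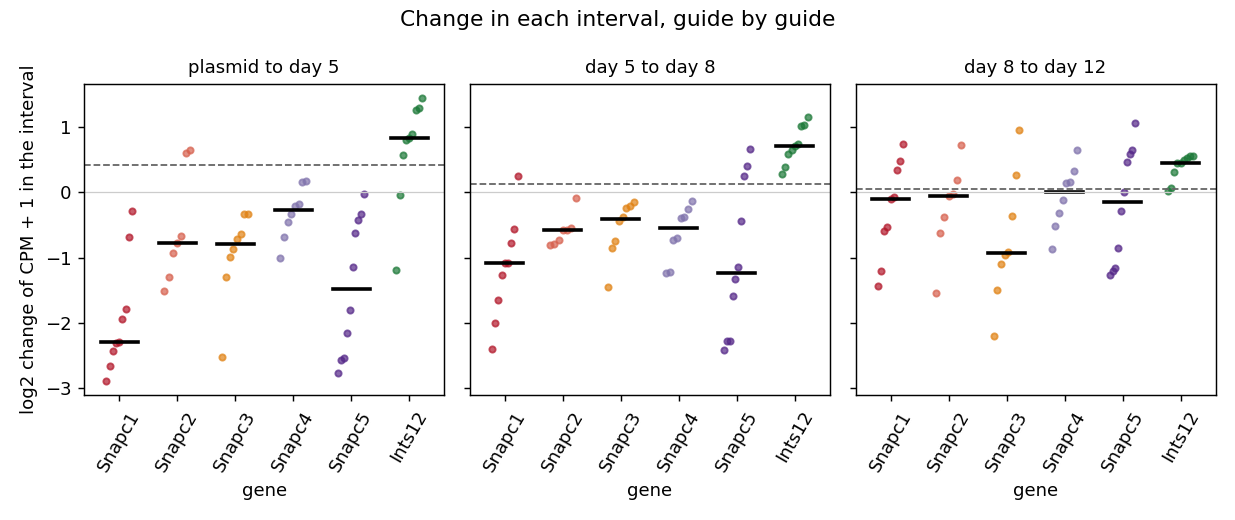
Log2 change of CPM plus 1 (y axis) in each of 3 intervals (panels) for the kept guides of each gene (x axis); points are guides, black bars are medians and the dashed line is the median of the non-targeting guides. The medians of Snapc1 and Snapc5 are lower in the first 2 intervals than in the last, Snapc3 has the lowest median of the last interval (-0.94), and all Ints12 guides lie above 0 in the second and the last interval.

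A straight trend over days, with the plasmid libraries at day 0, was fitted to all 15336 kept guides with the quasi-likelihood test of edgeR, which has 3 residual degrees of freedom. Its spread comes from the plasmid libraries and from departures from a straight course, not from replicate cultures. With Benjamini-Hochberg adjustment over all guides and a threshold of 0.05, 24.0% of guides to genes fell and 16.1% rose, so single calls are common. The same shares of non-targeting guides were 4.82% and 45.5%. With scaling factors taken from the non-targeting guides, 45.9% of guides to genes fell and 2.76% rose. Without plasmid replicate 1 the shares were 15.1% and 8.29%, and without plasmid replicate 2 they were 16.8% and 8.99%. Of the SNAPc guides 33 of 42 fell and 0 rose: 9 of 9 for Snapc1, 7 of 8 for Snapc3, 5 of 8 for Snapc4, 5 of 7 for Snapc2 and 7 of 10 for Snapc5. Of the Ints12 guides 8 of 9 rose and 0 fell. The guide that did not pass was guide 3. Under the non-targeting factors 36 of 42 SNAPc guides fell and 7 of 9 Ints12 guides rose. Without plasmid replicate 1 the counts were 27 and 8, and without plasmid replicate 2 they were 32 and 8. These counts rest on the libraries that put the set together and are not support for its direction. The median slope was -0.37 log2 units per day for Snapc1, -0.31 for Snapc5, -0.18 for Snapc3, -0.16 for Snapc2, -0.10 for Snapc4 and 0.15 for Ints12.

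Other genes of the transcription machinery around small nuclear RNA genes were low as well. The list takes in RNA polymerases II and III with their general factors, and some of these also serve, or serve only, other genes. Of 49 listed genes in the library, 37 had a median at least 2-fold lower at day 12 and 0 at least 2-fold higher, beside 15.8% and 1.19% of all genes. The median over the 49 genes was -1.47, against -2.21 over the 5 SNAPc genes and 0.01 over all genes. Among the RNA polymerase II subunit genes 10 of 11 were past 2-fold: Polr2g, the lowest of the list at -4.33 (SD 1.11), Polr2c (-3.72), Polr2j, Polr2h, Polr2b, Polr2d, Polr2e, Polr2i, Polr2a and Polr2f (-1.26). The products of Polr2e, Polr2f and Polr2h also serve RNA polymerases I and III. Of the initiation factor genes of this polymerase 6 of 7 were: Gtf2e2 (-3.72), Gtf2f2, Gtf2b, Gtf2a2, Gtf2a1 and Gtf2e1 (-1.04). Of the elongation and pausing factor genes 6 of 9 were: Ell (-2.33), which is found in the little elongation complex at small nuclear RNA genes, Nelfb, Supt5, Nelfe, Nelfcd and Supt4a (-1.14).

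The RNA polymerase III branch, which makes U6 RNA, was low as well. Past 2-fold were 8 of 10 polymerase subunit genes, counting Polr1c and Polr1d, which RNA polymerase I shares; among them were Polr3a (-3.44), Polr1c, Polr1d and Polr3f (-1.21). All 6 TFIIIA and TFIIIC genes that the library held were too: Gtf3c3 (-3.24), Gtf3a, Gtf3c1, Gtf3c4, Gtf3c2 and Gtf3c5 (-1.01). These factors serve other RNA polymerase III genes but not U6. Tbp, the TATA-binding protein gene, was at -1.24 (SD 0.75), while Brf1 (-0.84), whose relative Brf2 serves the U6 gene in its place, and Bdp1 (-0.83) were not past 2-fold. The 2 activators that bind upstream of small nuclear RNA promoters and contact SNAPc were not past 2-fold: Zfp143 was at -0.22 (SD 0.72) and Pou2f1, the highest of the list, at 0.74 (SD 0.68), near the non-targeting median. Coil, the gene of the Cajal body protein coilin, was at 0.01.

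**Figure D4:**
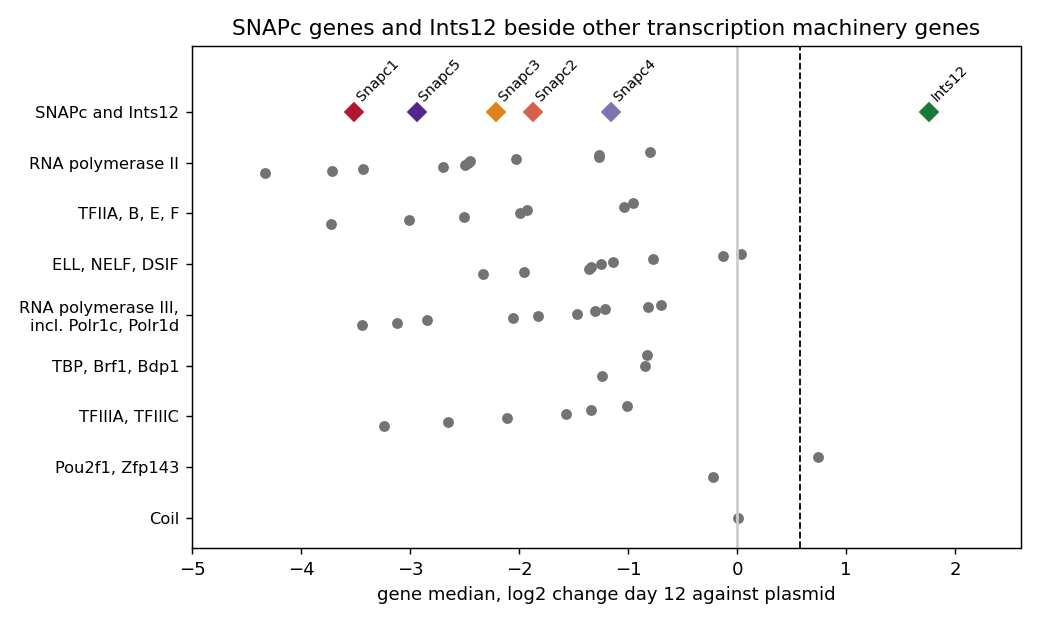
Gene medians of the log2 change at day 12 against the plasmid libraries (x axis) for the 6 genes (diamonds, top row) and 49 other genes of RNA polymerases II and III and related factors (grey points) by class (y axis); small vertical offsets only separate points, and the dashed line is the median of the non-targeting guides. The SNAPc genes lie between -3.52 and -1.16 within the range of the polymerase subunits, and Ints12 lies to the right of every other gene plotted.

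By the distance over the medians of the 3 days, genes with a course like Snapc1 included Polr2c (0.25 log2 units), Mcm2 (0.41), Polr1c (0.49) and Cnot3 (0.60). They code for polymerase subunits, a replicative helicase subunit and a deadenylase subunit, and at day 12 they lay between -3.89 and -3.12. Of the courses most like Ints12, Fubp1 (0.42) was about as near to it as Mcm2 was to Snapc1. Srsf6 (0.75), Erf (0.77), Spen (0.78) and Ncoa6 (0.78) were farther off. Together these neighbours of Ints12 had day 12 medians of 1.26 to 2.32. Each distance rests on 3 cell libraries and on the same plasmid reference, and describes likeness of course only.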

How the data were processed

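The authors deposited raw counts of reads per guide, per the file headers, for 5 libraries; the values are whole numbers whose totals differ. The submitters' processing notes list cutadapt, Bowtie and featureCounts with the build mm10 and no versions; mismatch settings were not given in the sources used here. Guides with at least 30 reads in both plasmid libraries were kept, 15336 of 17820 (14443 to genes, 893 non-targeting), with median reads of 178 and 68 in the plasmid libraries and 47 to 53 in the cells. Counts were scaled by TMM factors (edgeR 4.0.16, R 4.3.3) and log2 changes used a pseudocount of 1 CPM. Library sizes are totals over kept guides. The trend test was run on simulated counts with straight courses and no shift of the non-targeting guides, so that run does not bear on the shift.

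The members, the lists and the tests were chosen with earlier results of these data known. The named genes are the 6 members, the pathway genes past 2-fold with the lowest and highest of that list, and for Snapc1 and Ints12 the 5 genes nearest in course. Some genes that this rule names are not reported here. The placing of guides in proteins was not run. Alternatives covered scaling, pseudocount, read filter, plasmid reference, GC content, the summary over guides, DESeq2 1.42.0 and left-out libraries.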

Additional observations from a re-analysis of the deposited data

How the results depend on the processing

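Across 28 results under 312 alternative values, no median changed sign. Of these values 260 stayed within the standard error over guides, or within 1.5 times for counts. The counts have no sign to change, and every value rests on the same 5 libraries. Centring on the non-targeting guides shifted each gene down by 0.58: at day 12 Snapc1 was then at -4.10, Snapc2 at -2.45, Snapc3 at -2.80, Snapc4 at -1.74 and Ints12 at 1.18. A minimum of 100 plasmid reads left 13 SNAPc and 3 Ints12 guides and 0 for Snapc5. It gave -0.95 for Snapc3 (1 guide) and -1.47 for Snapc4 (3 guides). At that minimum 11 SNAPc guides were at least 2-fold lower and 3 Ints12 guides at least 2-fold higher. The shares of all guides to genes were 20% and 5.25%. In the trend 13 SNAPc guides fell and 3 Ints12 guides rose, beside 26.7% and 20.0% of guides to genes. Fewer guides tested set these counts. A minimum of 1 read gave -1.63 for Snapc3. For Snapc5 a pseudocount of 5 gave -2.16 and summed CPM -1.54. For Snapc4 summed CPM gave -0.90, short of a 2-fold loss, and the mean over guides gave -1.02. Trend calls elsewhere lay within 1.5 times of 33 and 8. Scaling by total reads moved the median of all guides to genes by -0.11. Without plasmid replicate 1 or 2 no day 12 median moved beyond the standard error over guides. From day 5 to day 12 the Snapc3 median, -1.35 in the main setting, ranged from -1.52 to -0.58 over 10 alternatives. The value of -0.58 rests on 1 guide, at the minimum of 100 reads. No paired analysis was possible because each time point is 1 library. Depth limits the lowest guides: at day 12 a count of 0 allows 3.27 CPM.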

Other observations

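The 9 guides below the read filter enter no value of the main settings, and their reads are given here; 8 SNAPc guides and 1 Ints12 guide of them enter under the minimum of 1 read. Ints12 guide 8 had 62 and 14 reads in the plasmid libraries and 32, 43 and 58 at days 5, 8 and 12, from libraries of lower total than plasmid library 1. Snapc1 guide 5 had 35 and 15 reads, then 6, 5 and 1. Snapc4 guide 8 had 87 and 22 reads, then 1, 3 and 1, while Snapc4 guide 2 had 45 and 15, then 11, 12 and 4. Among the Snapc2 guides, guide 1 had 97 and 23, then 7, 7 and 6, guide 2 had 33 and 7, then 3, 4 and 6, and guide 10 had 91 and 28, then 16, 10 and 5. Snapc3 guide 3 had 39 and 20 reads, then 17, 30 and 27, and Snapc3 guide 9 had 92 and 17, then 7, 13 and 7. In CPM, 1 read is worth 0.289 and 0.749 in plasmid libraries 1 and 2, and 0.964, 0.955 and 1.09 at days 5, 8 and 12. On this scale Snapc3 guide 3 lay above both plasmid libraries at each day. The 8 kept Snapc3 guides were all below the plasmid mean.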
